A study of Danio rerio with 12 samples.

Results

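The genes described here are PTGS2 (ENSDARG00000010276), ets2 (ENSDARG00000103980), CEBPB (ENSDARG00000042725) and irg1l (ENSDARG00000062788), 4 of the 32520 genes in the count table. They were picked because their response to 5AzadC, an inhibitor of DNA methylation built like the base cytosine with its sugar, differed strongly between wild-type embryos and the H2A.Z-mCherry line. The difference of the 2 responses, and every comparison that feeds into it, was therefore used to choose them. Their levels and fold changes are given as a description, with no test. Tests are given for related genes of the same pathways and families.

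Total RNA was sequenced from whole zebrafish embryos at 12 hours post fertilisation, in 4 groups of 3 libraries. H2A.Z-mCherry embryos, whose genotype is labelled as H2A.Z overexpression, received 100 µM 5AzadC or 0.1% DMSO, and wild-type embryos received the same. By its name the line makes mCherry-tagged H2A.Z, a variant of the core histone H2A. The sources used here name neither the promoter that drives it nor the number of founders. AB/Tuebingen is named as the stock of the adult wild-type fish. Eggs were treated straight after spawning in wells of around 50 embryos with 5 mL, so a library reflects a pool of embryos. Nothing in the labels says that replicates came from separate clutches, so p-values measure the spread between these libraries, which may be technical.

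PTGS2 encodes cyclooxygenase 2, the inducible enzyme that turns arachidonic acid into the precursor of prostaglandins. ets2 encodes a transcription factor of the ETS family, which in mammals is phosphorylated by MAP kinases. CEBPB encodes C/EBP beta, a basic leucine zipper transcription factor of the acute phase and inflammatory response. irg1l is a zebrafish relative of immune-responsive gene 1, whose mammalian product makes itaconate from aconitate in activated macrophages. In mammals PTGS2, ETS2 and CEBPB are switched on by growth factor, stress or cytokine signals, through factors that include AP-1 and NF-κB.

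Library totals ran from 1355337 to 1904063 counts in H2A.Z-mCherry with 5AzadC, 1182422 to 1660911 in H2A.Z-mCherry with DMSO, 1142051 to 1406110 in wild type with 5AzadC and 1535951 to 1740059 in wild type with DMSO. Levels are given in CPM, counts scaled to a common library total, after TMM scaling, which corrects the totals for differences in composition between libraries. Before TMM scaling a single count was worth 0.525 to 0.876 CPM. Whole-embryo genes were present in every library. The notochord and tail gene tbxta had 46.2 to 95.5 CPM, the muscle gene MYOD1 13.8 to 40.5 CPM, the neural gene SOX2 38.7 to 87.5 CPM and the surface keratin krt4 1470 to 6920 CPM. The H2A.Z gene h2az2b had 454 to 510 CPM in H2A.Z-mCherry with DMSO and 365 to 432 CPM in wild type with DMSO (adjusted p 0.0746), and the sources used here do not say whether transgene reads count towards it.

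All 4 genes passed the filter on low counts, which kept 12293 genes. Their group means shared a crosswise pattern, which held library by library in both lines only for PTGS2 and ets2. Each had its lowest mean in untreated wild-type embryos and its highest in wild-type embryos given 5AzadC. Untreated H2A.Z-mCherry embryos had more of each transcript than untreated wild-type embryos on average. H2A.Z-mCherry embryos given 5AzadC had a lower mean than those given DMSO. For CEBPB and irg1l the libraries of the treated and untreated H2A.Z-mCherry embryos overlapped.

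PTGS2 (ENSDARG00000010276) had 21.1, 22.4 and 23.4 CPM in H2A.Z-mCherry with 5AzadC, against 52.7, 47.6 and 80.7 CPM in H2A.Z-mCherry with DMSO. In wild type it had 84.9, 60.1 and 77.6 CPM with 5AzadC, against 12.6, 15.5 and 28.7 CPM with DMSO. The libraries thus fell into an upper pair of groups, wild type with 5AzadC and H2A.Z-mCherry with DMSO, and a lower pair, with no library in between. Within each pair the ranges overlapped. The fitted log2 fold change for 5AzadC over DMSO was -1.41 ± 0.25 (SE) in H2A.Z-mCherry and 1.97 ± 0.26 in wild type, a difference of -3.39 ± 0.36. Between the lines, H2A.Z-mCherry over wild type, it was 1.66 ± 0.26 with DMSO and -1.73 ± 0.25 with 5AzadC.

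The ETS factor gene ets2 had 7.53, 16.5 and 22.9 CPM in H2A.Z-mCherry with 5AzadC, against 45.4, 25.3 and 28.9 CPM in H2A.Z-mCherry with DMSO. In wild type it had 38.0, 37.9 and 39.7 CPM with 5AzadC, against 8.85, 16.7 and 6.52 CPM with DMSO. The split into an upper and a lower pair of groups was the same as for PTGS2, and again the ranges overlapped within each pair. The SD was 7.73 CPM over the treated H2A.Z-mCherry libraries and 1.03 CPM over the treated wild-type libraries. The fitted log2 fold change for 5AzadC over DMSO was -1.03 ± 0.32 in H2A.Z-mCherry and 1.82 ± 0.34 in wild type, a difference of -2.85 ± 0.47. Without H2A.Z-mCherry 5AzadC replicate 1, the lowest of that group, the value in H2A.Z-mCherry was -0.73.

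CEBPB had 29.3, 30.0 and 26.6 CPM in H2A.Z-mCherry with 5AzadC, against 38.1, 27.0 and 39.9 CPM in H2A.Z-mCherry with DMSO. In wild type it had 41.7, 32.1 and 43.4 CPM with 5AzadC, against 8.85, 17.8 and 15.6 CPM with DMSO. Here untreated wild-type embryos stood below all other libraries, and the ranges of the 2 H2A.Z-mCherry groups overlapped. The fitted log2 fold change for 5AzadC over DMSO was -0.28 ± 0.27 in H2A.Z-mCherry, close to its error, and 1.46 ± 0.30 in wild type, a difference of -1.73 ± 0.40. H2A.Z-mCherry over wild type was 1.29 ± 0.30 with DMSO and -0.45 ± 0.27 with 5AzadC, so the line difference of CEBPB lay mainly in the untreated embryos.

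The gene irg1l was the least abundant in counts, with 20 counts over the 3 untreated wild-type libraries. It had 16.6, 7.66 and 4.17 CPM in H2A.Z-mCherry with 5AzadC, against 4.86, 17.6 and 24.6 CPM in H2A.Z-mCherry with DMSO, and these ranges overlapped. In wild type it had 28.3, 25.5 and 45.2 CPM with 5AzadC, against 1.26, 2.88 and 8.47 CPM with DMSO. Treated wild-type embryos stood above all other libraries. The fitted log2 fold change for 5AzadC over DMSO was -0.80 ± 0.49 in H2A.Z-mCherry and 2.96 ± 0.52 in wild type, a difference of -3.76 ± 0.72. The value in H2A.Z-mCherry hung on single libraries. It was -1.41 without H2A.Z-mCherry 5AzadC replicate 1, -0.40 without replicate 3 of that group, -1.21 without H2A.Z-mCherry DMSO replicate 1 and -0.38 without replicate 3 of that group. Wild-type DMSO replicate 3 held 13 of the 20 counts. Without it the wild-type response was 3.91, the difference -4.71 and the line difference with DMSO 2.86, against 1.9 ± 0.55 with all libraries.

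**Figure D1:**
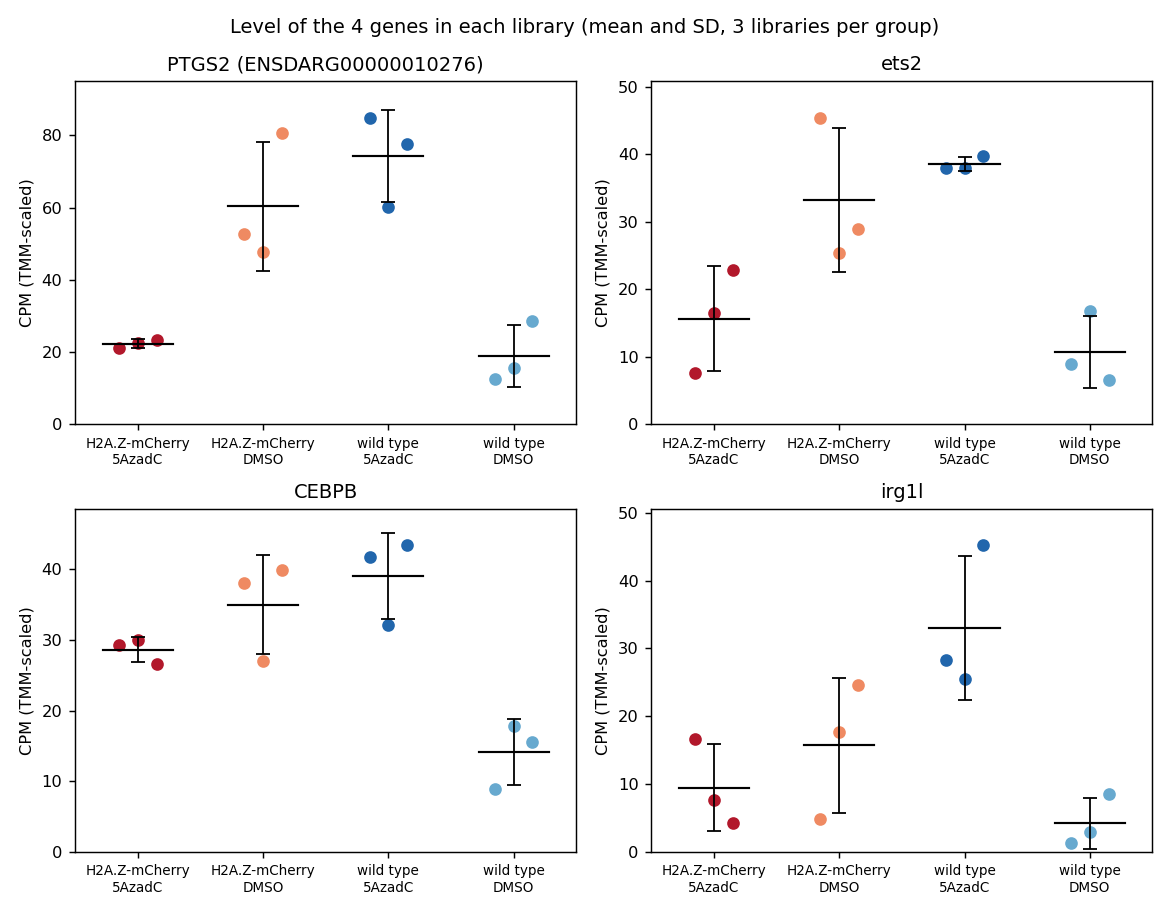
Level of PTGS2 (ENSDARG00000010276), ets2, CEBPB and irg1l in each of the 12 libraries, in CPM after TMM scaling (y axis), by group (x axis). Points are libraries, horizontal bars means and error bars SDs (n = 3). For PTGS2 the means were 22.3, 60.3, 74.2 and 19.0 CPM from left to right, and the libraries of the middle pair of groups all lay above those of the outer pair.

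Set out by comparison, the libraries of treated and untreated wild-type embryos did not overlap for any of the 4 genes, all being higher with 5AzadC, as were 17.3% of all tested genes. In H2A.Z-mCherry PTGS2 and ets2 had no overlap and were lower with 5AzadC (16.3% of tested genes), while CEBPB and irg1l overlapped. With DMSO, 3 genes were higher in every H2A.Z-mCherry library than in any wild-type library (10.6% of tested genes), the exception being irg1l, whose H2A.Z-mCherry replicate 1 had 4.86 CPM. With 5AzadC all 4 were lower in every H2A.Z-mCherry library than in any wild-type library (14.9% of tested genes). The combination seen for PTGS2 and ets2, higher in wild type and lower in H2A.Z-mCherry with 5AzadC without overlap in either line, was found for 86 tested genes (0.7%). These counts describe genes that were chosen on the same values.

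The authors' deposited table for H2A.Z-mCherry gives log2 fold changes for 5AzadC over DMSO of -1.43 for PTGS2 (ENSDARG00000010276), -1.06 for ets2, -0.29 for CEBPB and -0.77 for irg1l. The authors' deposited table for wild type gives 1.98, 1.84, 1.46 and 2.99 for the same genes in that order. The SEs there are larger, 0.30 and 0.30 for PTGS2 and 0.58 and 0.62 for irg1l in H2A.Z-mCherry and in wild type.

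**Figure D2:**
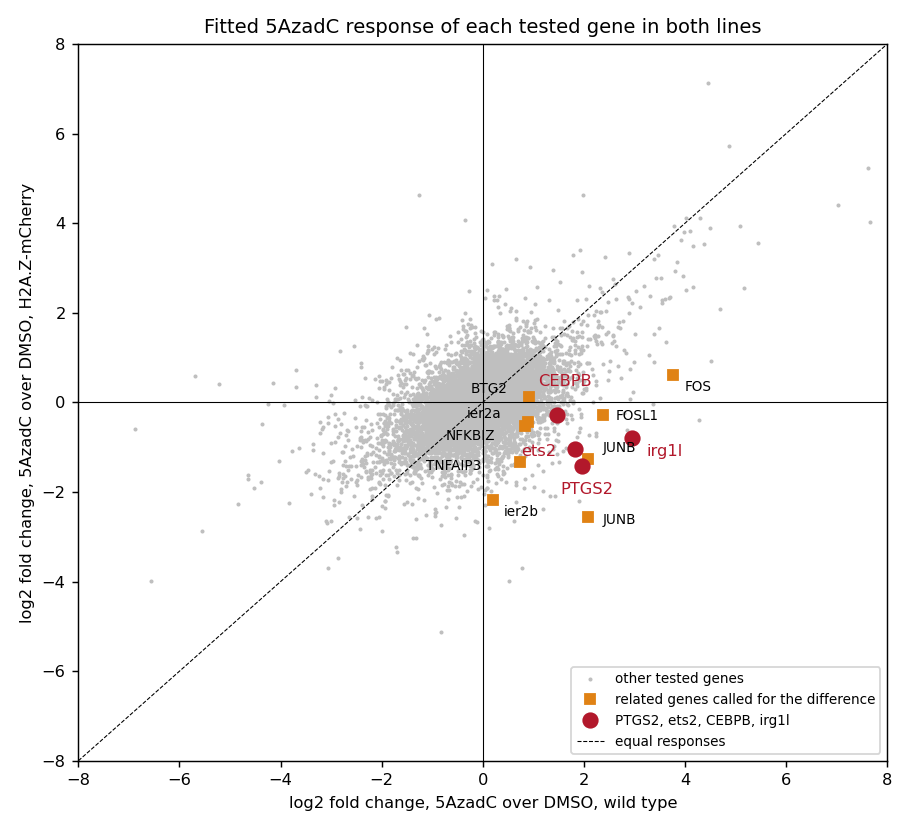
Fitted log2 fold change for 5AzadC over DMSO in H2A.Z-mCherry (y axis) against that in wild type (x axis) for the 12293 tested genes. Each point is a gene, and the dashed line marks equal responses. PTGS2, ets2, CEBPB and irg1l (red) lie right of 0 and below 0, as do 16.2% of all tested genes, and squares mark the 9 related genes called for the difference.

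The close relatives of the 4 genes, which are not among the 4, were examined next. The choice took PTGS2 by its gene identifier, with earlier results of these data known. The results for the relatives are therefore not independent of the choice. The other zebrafish gene named PTGS2 (ENSDARG00000004539) had 46.7 to 57.7 CPM in H2A.Z-mCherry with 5AzadC, 35.7 to 45.0 CPM in H2A.Z-mCherry with DMSO, 56.8 to 73.0 CPM in wild type with 5AzadC and 34.5 to 49.3 CPM in wild type with DMSO. It was thus higher with the drug in both lines, without overlap (16.9% of tested genes in H2A.Z-mCherry and 17.3% in wild type), and its untreated levels overlapped between lines. The difference of the responses was -0.25 ± 0.30 (adjusted p 0.752), and its value in H2A.Z-mCherry was 0.39 ± 0.22 (adjusted p 0.218). Its rise in wild type (0.64 ± 0.21, adjusted p 0.0209) was lost without wild-type 5AzadC replicate 1, wild-type DMSO replicate 2 or wild-type DMSO replicate 3 (up to 0.125). The sources used here do not say how reads shared by the 2 PTGS2 genes were counted, so the split between them is uncertain to that extent.

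The constitutive cyclooxygenase gene ptgs1 went the other way between untreated lines. It had 19.5 to 25.9 CPM in H2A.Z-mCherry with DMSO and 32.6 to 46.8 CPM in wild type with DMSO, a log2 fold change of -0.86 ± 0.25 (adjusted p 0.0273). That call was lost without either of H2A.Z-mCherry DMSO replicates 2 and 3 or wild-type DMSO replicates 1 and 2 (up to 0.131). With 5AzadC ptgs1 was also lower in H2A.Z-mCherry than wild type (-0.72 ± 0.23, adjusted p 0.0228), a call lost without wild-type 5AzadC replicate 1. For 5AzadC over DMSO it was at 0.57 ± 0.23 in wild type (adjusted p 0.0628) and rose in H2A.Z-mCherry (0.71 ± 0.26, adjusted p 0.0394). The call of this rise was lost with DESeq2, without a filter on low counts and without any of H2A.Z-mCherry 5AzadC or DMSO replicates 2 and 3 (up to 0.225). For ptgs1 the difference of the responses was 0.14 ± 0.34 (adjusted p 0.892).

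ETS1, the nearest relative of ets2 in the ETS family, was at -0.92 ± 0.62 for the difference of the responses (adjusted p 0.502), with 5.89 to 12.5 CPM in H2A.Z-mCherry with 5AzadC, 14.7 to 17.0 CPM in H2A.Z-mCherry with DMSO, 7.44 to 18.5 CPM in wild type with 5AzadC and 8.47 to 11.5 CPM in wild type with DMSO. Of the relatives of CEBPB, CEBPA, a factor of fat, liver and myeloid cells, was at -0.22 ± 0.33 (adjusted p 0.812) and CEBPD, an acute phase factor, at 0.32 ± 0.69 (adjusted p 0.876). The family member cebpg, which lacks an activation domain of its own in mammals, was at 1.41 ± 0.50 (adjusted p 0.105), with 20.0 to 24.1 CPM in treated and 14.1 to 17.8 CPM in untreated H2A.Z-mCherry embryos, and 7.41 to 13.9 CPM in treated and 18.9 to 20.7 CPM in untreated wild-type embryos. ACOD1, the zebrafish gene that carries the name of the itaconate enzyme itself, had 0 counts in all 12 libraries. A p-value that misses the threshold does not show that the response of a relative was the same in both lines.

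Beyond these relatives, 7 lists of related genes held 178 genes of the table apart from the 4, of which 96 were tested. The lists were chosen with earlier results of these data known, so their shares are a description and not an independent test. For the difference of the responses 9 of the 96 (9.38%) were called, all lower, beside 3.75% of all tested genes called in either direction (1.9% higher and 1.85% lower). With DMSO 9 were higher and 7 lower in H2A.Z-mCherry than in wild type, 16.7% in all, beside 5.32% of all tested genes (2.73% higher and 2.59% lower). This count with DMSO was 8 without wild-type DMSO replicate 3, 10 without wild-type DMSO replicate 2, and 9 without either of H2A.Z-mCherry DMSO replicates 2 and 3. With 5AzadC, 6 were higher and 18 lower in H2A.Z-mCherry, 25.0% beside 15.6% of all tested genes (8% higher and 7.61% lower). That total of 24 fell to 14 without wild-type 5AzadC replicate 1 and to 15 without H2A.Z-mCherry 5AzadC replicate 1. For 5AzadC over DMSO, 7 rose and 11 fell in H2A.Z-mCherry (18.8%, beside 17.9% of all tested genes, 8.84% higher and 9.03% lower). In wild type 20 rose and 9 fell (30.2%, beside 22.3%, 10.7% higher and 11.7% lower). The median log2 value of the 96 genes was -0.14 for the difference, against 0.02 over all tested genes. Of the 9 calls for the difference, 4 came from the 10 tested AP-1 genes and partners.

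The lists around the 4 genes' own pathways held no call for the difference with edgeR. Of 10 tested prostaglandin pathway genes none was called (2 at an unadjusted p under 0.05, none with DESeq2), and their median was 0.02. In the ETS family none of 10 was called (1 unadjusted, none with DESeq2), in the C/EBP family none of 4 (1 unadjusted, none with DESeq2), and among the itaconate and aconitate enzymes none of 7 (none unadjusted, none with DESeq2). In the ETS family 1 of 10 tested genes was called between untreated lines (10%, beside 5.32% of all tested genes). This was the fibroblast growth factor target etv5b. It had 206 to 239 CPM in treated and 149 to 172 CPM in untreated H2A.Z-mCherry embryos, and 134 to 234 CPM in treated and 94.2 to 111 CPM in untreated wild-type embryos. It was higher in untreated H2A.Z-mCherry than in untreated wild type (0.67, adjusted p 0.000585), as ets2 was, and it rose with 5AzadC in wild type (0.79, adjusted p 7.41e-06). Unlike ets2, which was lower with 5AzadC in H2A.Z-mCherry, it also rose there (0.43, adjusted p 0.016), a call lost with DESeq2 and without H2A.Z-mCherry 5AzadC replicate 1 or H2A.Z-mCherry DMSO replicate 3 (up to 0.0997). Its difference of the responses was -0.36 (adjusted p 0.347). Another ETS gene, ELK4, whose protein binds the serum response element, fell with 5AzadC in both lines, by 1.21 in H2A.Z-mCherry (adjusted p 0.00321) and by 0.97 in wild type (adjusted p 0.0137). Of the 2 genes named ERF, which encode an ETS repressor, ENSDARG00000063417 rose in H2A.Z-mCherry (0.55, adjusted p 0.000235). In wild type it was at 0.15 (adjusted p 0.412), with a difference of 0.4 (adjusted p 0.175). The other, ENSDARG00000062801, fell in wild type (-0.57, adjusted p 0.00217) and in H2A.Z-mCherry (-0.43, adjusted p 0.0263). Its difference was 0.14 (adjusted p 0.802). The wild-type rises of elf1 (0.52, adjusted p 0.0115) and of the succinyl-CoA ligase gene SUCLG1 in the itaconate list (0.63, adjusted p 0.032) were not stable. That of elf1 was lost without wild-type 5AzadC replicate 2 or wild-type DMSO replicate 1 (up to 0.097), and that of SUCLG1 without wild-type 5AzadC replicate 1 or wild-type DMSO replicates 2 or 3 (up to 0.189).

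Between the lines, 1 of the 10 tested prostaglandin genes was higher and 2 lower in H2A.Z-mCherry with DMSO (30%, beside 5.32% of all tested genes). With 5AzadC 3 were higher and 2 lower (50%, beside 15.6%), and these 5 calls fell to 0 without wild-type 5AzadC replicate 1. In this list the receptor gene PTGER4 had 2 counts in untreated H2A.Z-mCherry embryos against 42 in untreated wild-type embryos, so it was 17.8-fold lower per library total in H2A.Z-mCherry (95% interval 4.64 to 152, counting error only). The lipocalin-type prostaglandin D synthase gene ptgdsb.1 had 36.5 to 55.8 CPM in untreated H2A.Z-mCherry and 19.6 to 23.5 CPM in untreated wild type (1.23, adjusted p 0.000923). PTGES3 (ENSDARG00000089626), a co-chaperone gene also known as cytosolic prostaglandin E synthase, rose with 5AzadC in H2A.Z-mCherry (0.56, adjusted p 0.00155) and was at 0.01 in wild type (adjusted p 0.973), with a difference of 0.55 (adjusted p 0.10). The other tested gene named PTGES3, ENSDARG00000037284, was at 0.51 in H2A.Z-mCherry (adjusted p 0.333) and -0.63 in wild type (adjusted p 0.282). Its difference was 1.14 (adjusted p 0.252).

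**Figure D3:**
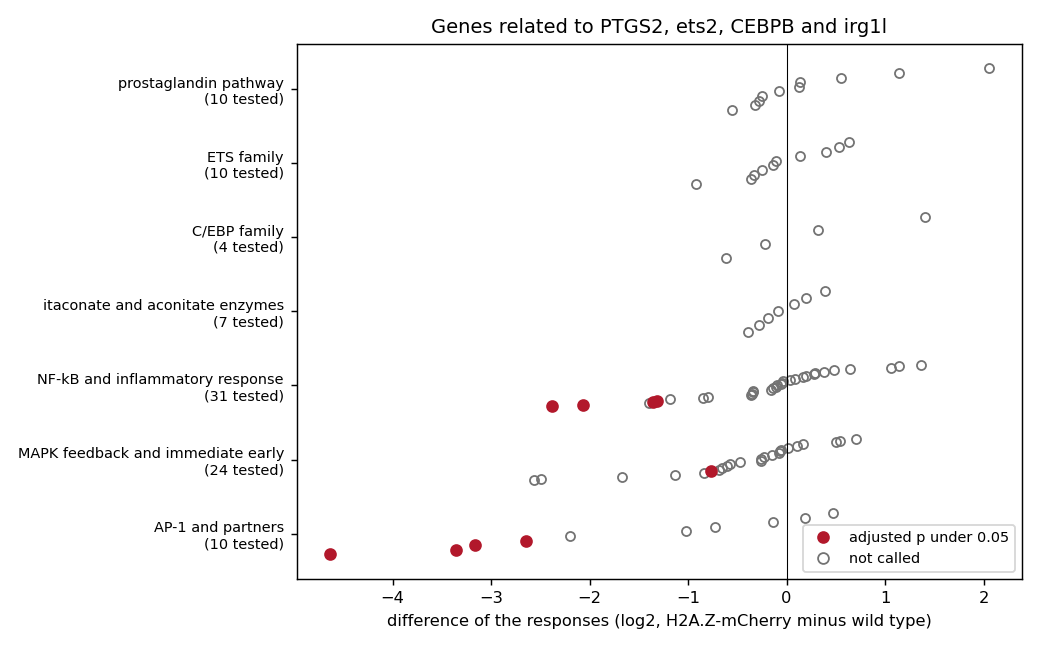
Difference of the 5AzadC responses, H2A.Z-mCherry minus wild type, on the log2 scale (x axis) for the tested genes of 7 related lists (rows), without the 4 genes themselves. Filled points passed an adjusted p under 0.05 and open points did not. The 9 filled points lie in the AP-1, NF-κB and MAPK lists, all below 0, and the 4 upper lists hold none.

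The 9 calls lay in the AP-1, NF-κB and MAP kinase lists. AP-1 is a transcription factor made of FOS and JUN proteins, which cells switch on within minutes of many stimuli. Of 10 tested AP-1 genes and partners 4 were called lower for the difference (40%, beside 1.85% of all tested genes). These were FOS, FOSL1 and both genes named JUNB. FOS had 36.1, 48.9 and 45.8 CPM in H2A.Z-mCherry with 5AzadC, against 40.5, 20.6 and 26.3 CPM with DMSO. In wild type FOS had 93.8, 71.6 and 97.9 CPM with 5AzadC, against 5.06, 9.20 and 4.56 CPM with DMSO. FOS thus shared with the 4 genes the low untreated wild-type level and the higher untreated H2A.Z-mCherry level (2.16 ± 0.33, adjusted p 9.87e-07), and its rise with 5AzadC in wild type was 3.77 ± 0.30 (adjusted p 7.45e-18) beside 0.61 ± 0.25 in H2A.Z-mCherry (adjusted p 0.0834), a difference of -3.16 ± 0.40 (adjusted p 4.45e-08).

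The JUNB gene ENSDARG00000104773 had 7.53, 10.0 and 16.7 CPM in treated and 35.7, 25.9 and 23.8 CPM in untreated H2A.Z-mCherry embryos, and 58.8, 32.9 and 58.2 CPM in treated and 15.2, 12.7 and 7.17 CPM in untreated wild-type embryos. It fell in H2A.Z-mCherry (-1.27, adjusted p 0.00346) and rose in wild type (2.09, adjusted p 2.49e-07), a difference of -3.36 ± 0.46 (adjusted p 2.98e-07). The other JUNB gene, ENSDARG00000074378, had 2.26, 0.589 and 8.33 CPM in treated and 30.0, 17.0 and 24.6 CPM in untreated H2A.Z-mCherry embryos, and 23.8, 9.88 and 22.2 CPM in treated and 5.06, 2.88 and 5.21 CPM in untreated wild-type embryos. Its difference was -4.64 ± 0.70 (adjusted p 2.82e-06). Counts were low, with 3, 1 and 16 in treated H2A.Z-mCherry embryos, and without replicate 3 of that group the H2A.Z-mCherry response was -4.06, against -2.56 with it, and the difference -6.14. For both JUNB genes all treated H2A.Z-mCherry and untreated wild-type libraries were below all libraries of the other groups, as for PTGS2 and ets2. Their lowest mean was in treated H2A.Z-mCherry embryos, where that of PTGS2 and ets2 was in untreated wild type. The ranges of these 2 groups overlapped for each of these genes, so the order of the means is uncertain. How reads common to both JUNB genes were divided is likewise not stated. FOSL1 was at 2.37 in wild type (adjusted p 3.63e-07) and at -0.28 in H2A.Z-mCherry (adjusted p 0.672), a difference of -2.65 ± 0.53 (adjusted p 0.00061).

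NF-κB is the factor that inflammatory cytokines and microbial products release from its inhibitors, and it induces PTGS2 in mammals. Of 31 tested genes of the NF-κB and inflammatory list 4 were called lower for the difference and none higher (12.9%, beside 3.75% of all tested genes). TNFAIP3, which encodes the feedback inhibitor A20, had 12.8, 18.9 and 9.37 CPM in treated and 31.6, 35.3 and 36.5 CPM in untreated H2A.Z-mCherry embryos, and 43.9, 56.8 and 36.9 CPM in treated and 29.1, 26.5 and 27.4 CPM in untreated wild-type embryos. Its difference was -2.07 ± 0.40 (adjusted p 0.000286). It fell in H2A.Z-mCherry (-1.34, adjusted p 0.00043) and the value between untreated lines was 0.32 (adjusted p 0.613). NFKBIZ, which encodes an atypical member of the IκB family, was at -1.36 ± 0.31 (adjusted p 0.00321). The immediate early genes ier2a and ier2b were at -1.32 ± 0.29 (adjusted p 0.00272) and -2.38 ± 0.64 (adjusted p 0.0179). With 5AzadC ier2a rose in wild type (0.89, adjusted p 0.000666) and was at -0.43 in H2A.Z-mCherry (adjusted p 0.145). The gene ier2b was at 0.2 in wild type (adjusted p 0.793) and fell in H2A.Z-mCherry (-2.18, adjusted p 0.000418). Between untreated lines 2 genes of this list were higher and 4 lower in H2A.Z-mCherry. That is 19.4%, beside 5.32% of all tested genes (2.73% higher and 2.59% lower). The count of 6 fell to 2 without wild-type DMSO replicate 3. It also fell without either of H2A.Z-mCherry DMSO replicates 2 and 3. The kinase gene RIPK2, which acts below NOD receptors, had 1.62 to 3.53 CPM in H2A.Z-mCherry and 10.9 to 15.6 CPM in wild type (-2.29, adjusted p 0.00293). The chemokine gene cxcl12b was also lower (-0.87, adjusted p 0.011), a call lost without H2A.Z-mCherry DMSO replicate 2 or wild-type DMSO replicate 3 (up to 0.104). BIRC2, an inhibitor of apoptosis, had 28 counts in H2A.Z-mCherry and 2 in wild type, 16.5-fold higher per library total in H2A.Z-mCherry (95% interval 4.16 to 143, counting error only). Its adjusted p was 0.0119, but up to 0.0715 when H2A.Z-mCherry DMSO replicate 2 or wild-type DMSO replicate 3 was left out. With 5AzadC, the NADPH oxidase organiser gene noxo1a rose in wild type (0.96, adjusted p 2.38e-05) and was at 0.15 in H2A.Z-mCherry (adjusted p 0.625), with a difference of -0.80 (adjusted p 0.0617). The IκB kinase gene CHUK rose in H2A.Z-mCherry (0.51, adjusted p 0.0368), a call lost without a filter on low counts and without any of H2A.Z-mCherry 5AzadC replicates 2 and 3 or the H2A.Z-mCherry DMSO replicates (up to 0.154). The NF-κB subunit gene RELA was at -0.11 (adjusted p 0.915) and nfkb1 at -0.34 (adjusted p 0.798).

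MAP kinase feedback and other immediate early genes gave 1 call for the difference among 24 tested. That is 4.17% beside 3.75% of all tested genes, which is near the background. At an unadjusted p under 0.05 there were 6, and the list median was -0.26, against 0.02 over all tested genes. The immediate early genes ier2a and ier2b were placed in the NF-κB list, so the shares of both lists depend on that placement. BTG2, an antiproliferative gene that p53 also activates, had 364 to 428 CPM in treated and 324 to 378 CPM in untreated H2A.Z-mCherry embryos, and 542 to 623 CPM in treated and 293 to 346 CPM in untreated wild-type embryos, a difference of -0.77 ± 0.14 (adjusted p 6.25e-05). The MAP kinase feedback inhibitor SPRY2 fell in both lines, by 0.59 in H2A.Z-mCherry (adjusted p 0.00101) and by 0.51 in wild type (adjusted p 0.00474), with a difference of -0.08 (adjusted p 0.899). Its relative spred2a fell likewise, by 0.53 (adjusted p 0.00311) and by 0.47 (adjusted p 0.011). The stress kinase gene PLK3 rose in both lines, by 0.48 in H2A.Z-mCherry (adjusted p 0.00546, lost without H2A.Z-mCherry DMSO replicate 3, at 0.0764) and by 1.05 in wild type (adjusted p 1.05e-09), with a difference of -0.57 (adjusted p 0.0665). GADD45B (ENSDARG00000013576), a stress response gene, rose in H2A.Z-mCherry (1.23, adjusted p 0.0409) and in wild type (1.88, adjusted p 0.000185). The other tested gene named GADD45B, ENSDARG00000027744, was at -0.58 in H2A.Z-mCherry (adjusted p 0.311) and 0.54 in wild type (adjusted p 0.342). Between untreated lines the nuclear receptor gene NR4A1 was higher (2.46, adjusted p 0.0388) and the phosphatase gene DUSP10 lower (-1.94, adjusted p 0.0408) in H2A.Z-mCherry. Without a filter on low counts neither was called, and leaving out single libraries took adjusted p up to 0.19 for NR4A1, whose call was lost without any of the untreated libraries but wild-type replicate 1. For DUSP10 it reached 0.198, the call being lost with DESeq2, without wild-type 5AzadC replicate 1 and without any of the untreated libraries but H2A.Z-mCherry replicate 1. DUSP6, a phosphatase that switches off ERK, was at 0.11 for the difference (adjusted p 0.932).

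**Figure D4:**
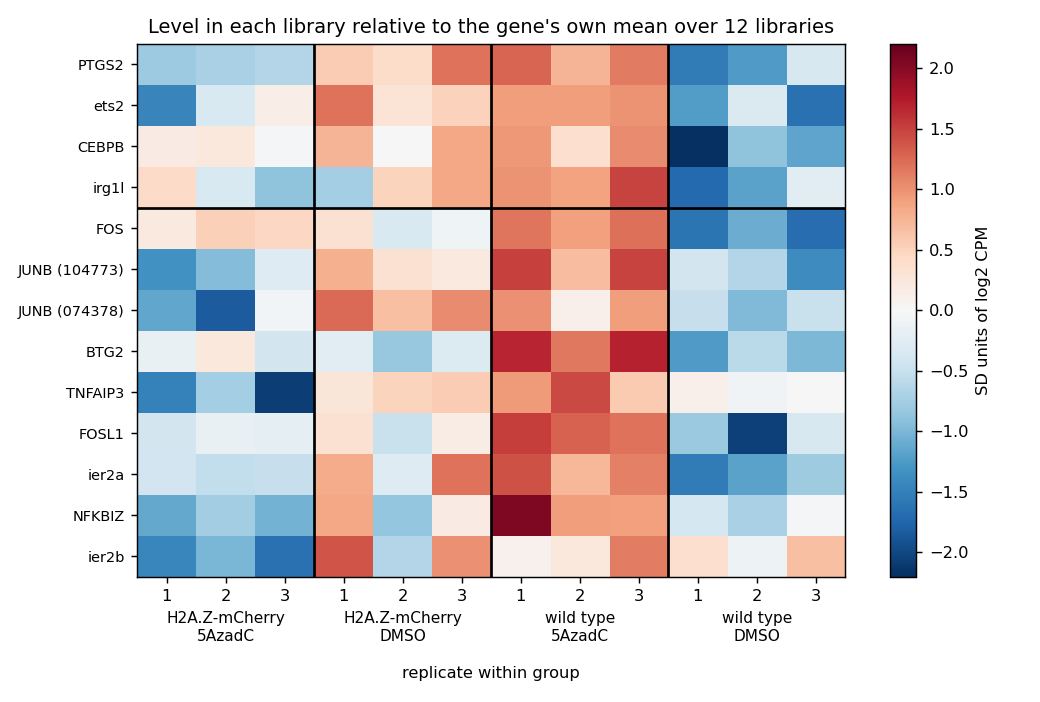
Log2 CPM of PTGS2 (ENSDARG00000010276), ets2, CEBPB and irg1l (above the horizontal line) and of the 9 related genes called for the difference (below it) in the 12 libraries (columns), each gene centred on its own mean and divided by its SD over libraries. Red is above the gene's mean and blue below it. Treated H2A.Z-mCherry libraries were below treated wild-type libraries without overlap for all 13 genes (14.9% of all tested genes), which were chosen on values that include these.

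Likeness of pattern was measured as Pearson's r of log2 CPM over the 12 libraries. The libraries form 4 groups that share reference groups and scaling, so r mostly carries the group means and is a description. The gene most like PTGS2 (ENSDARG00000010276) was ier2a (r = 0.96), followed by ftr86, a member of the finTRIM family of zebrafish (r = 0.94), and FNIP1, whose protein binds folliculin (r = 0.91). For ets2 they were JUNB (ENSDARG00000104773, r = 0.89), ALAS1, which encodes the entry enzyme of heme synthesis (r = 0.87), and PHOSPHO2 (r = 0.86). CEBPB was most like zgc:100868 (r = 0.93), the elongation factor gene eef2b (r = 0.92) and ilf3a (r = 0.91). For irg1l they were a signal recognition particle RNA annotated as Metazoa_SRP (ENSDARG00000115479, r = 0.89), syne2a (r = 0.88) and PPP2R2B (r = 0.88).

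By the mean r with all 4 genes the order was ier2a (0.86), apoa1b (0.83), ftr86 (0.82), si:ch211-67f24.11 (0.80) and epha2b (0.80). Among these, ftr86 averaged 76.3 ± 3.36 CPM in treated and 155 ± 17.4 CPM in untreated H2A.Z-mCherry embryos, and 217 ± 18.1 CPM in treated and 69.6 ± 3.65 CPM in untreated wild-type embryos (SD, n = 3 each). That is the order of groups seen for PTGS2, a likeness made probable by the choice of ftr86 for its high r. ALAS1 averaged 81.9 ± 7.19 CPM in treated and 131 ± 2.65 CPM in untreated H2A.Z-mCherry embryos, and 129 ± 21.0 CPM in treated and 80.1 ± 6.46 CPM in untreated wild-type embryos (SD, n = 3 each). The likeness of CEBPB to eef2b, with 7290 ± 453 CPM in untreated wild type and 9610 to 10100 CPM as group means elsewhere, rested on a low untreated wild-type group.

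Markers of cell types that could carry these transcripts also differed between groups, and fewer cells of a type and less RNA per cell cannot be told apart in whole embryos. Of 24 tested periderm and epidermis genes 6 were called lower and 1 higher for the difference of the responses, beside 1.85% lower and 1.9% higher of all tested genes. The list, in which 1 of 34 matched genes was at 0 throughout, summed to 7130 to 8690 CPM in treated and 5940 to 7030 CPM in untreated H2A.Z-mCherry embryos, and to 11900 to 14300 CPM in treated and 6920 to 7690 CPM in untreated wild-type embryos. The gene krt4 alone had 1700 to 2090 CPM in treated and 1470 to 1850 CPM in untreated H2A.Z-mCherry embryos. In wild type krt4 had 5530 to 6920 CPM with 5AzadC and 3260 to 3770 CPM with DMSO. Without krt4 the sums were 5430 to 6600 CPM in treated and 4470 to 5180 CPM in untreated H2A.Z-mCherry embryos. In wild type they were 6370 to 7410 CPM with 5AzadC and 3660 to 3920 CPM with DMSO. Untreated wild type thus lay below untreated H2A.Z-mCherry without krt4, and the ranges of the treated groups overlapped. The surface keratin genes cyt1l (-0.91, adjusted p 1.45e-07) and krt92 (-0.93, adjusted p 4.66e-07) had the smallest p-values of the list for the difference. The part of the covering layer in the levels of PTGS2, ets2, CEBPB and irg1l was not tested.

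Endothelial and blood markers had 2 of 8 tested genes called lower for the difference, beside 1.85% of all tested genes, SOX7 (-1.96, adjusted p 0.0153) and npas4l (-1.01, adjusted p 0.0364). The call of SOX7, an endothelial factor gene, was lost without H2A.Z-mCherry DMSO replicate 1 or wild-type DMSO replicate 2 (up to 0.0748), and that of npas4l without any of 7 libraries (up to 0.115). The 15 matched genes, gata1a among them at 0, summed to 286 to 306 CPM in treated and 329 to 380 CPM in untreated H2A.Z-mCherry embryos, and to 343 to 403 CPM in treated and 280 to 331 CPM in untreated wild-type embryos. This sum was higher in untreated H2A.Z-mCherry than in treated H2A.Z-mCherry embryos, and higher in treated than in untreated wild-type embryos, without overlap. Much of that came from npas4l, with means of 77.7 CPM in treated and 104 CPM in untreated H2A.Z-mCherry embryos. In wild type npas4l averaged 134 CPM with 5AzadC and 88.5 CPM with DMSO. For the difference KDR, kdrl, FLI1, EGFL7, TAL1 and LMO2 were at -0.12, 0.26, -0.14, 0.14, -0.03 and -0.73, none called. The part of these cells in the levels of PTGS2, ets2, CEBPB and irg1l was not tested.

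Of 21 matched myeloid marker genes 10 were at 0 in all libraries, among them lyz, marco, cxcr3.2 and the genes named MPEG1, which define neutrophils and macrophages. The list summed to 43.6 to 72.5 CPM in treated and 34.7 to 51.1 CPM in untreated H2A.Z-mCherry embryos, and to 88.7 to 108 CPM in treated and 62.0 to 76.5 CPM in untreated wild-type embryos. None of the 2 tested genes, LCP1 and cybb, was called for the difference with edgeR (none at an unadjusted p under 0.05, none with DESeq2). Yolk syncytial markers had 1 of 15 tested genes called for the difference (6.67%, beside 3.75% of all tested genes), apoa1b (-0.68, adjusted p 0.000994). Their 20 matched genes, 1 of them at 0 throughout, summed to 7630 to 9280 CPM in treated and 6530 to 7320 CPM in untreated H2A.Z-mCherry embryos, and to 6920 to 7970 CPM in treated and 5970 to 6760 CPM in untreated wild-type embryos. The part of these cells was not tested.

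**Figure D5:**
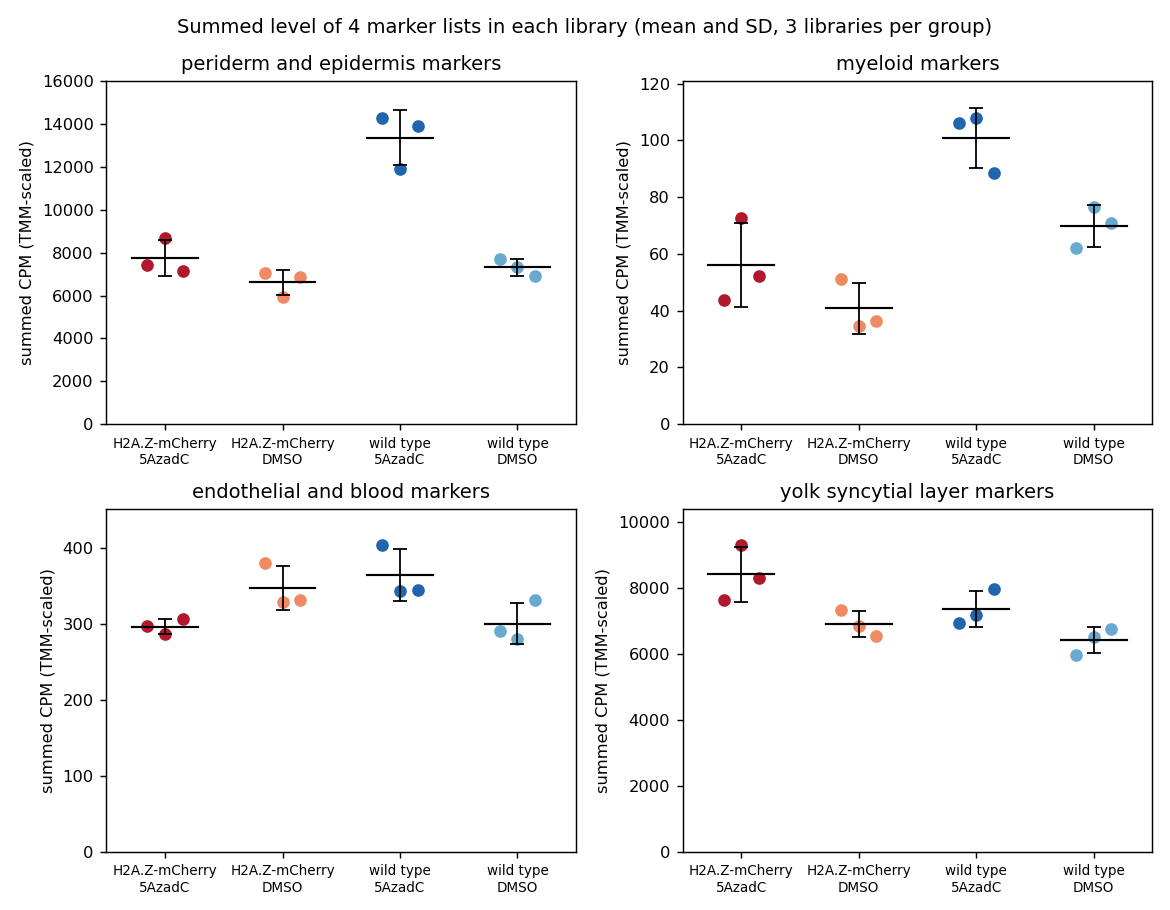
Summed CPM (y axis) of 4 marker lists in each library by group (x axis), with points for libraries, bars for means and error bars for SDs (n = 3). The periderm sum was highest in treated wild-type embryos, from 11900 to 14300 CPM, of which krt4 gave 5530 to 6920 CPM. The endothelial and blood sum was highest there and in untreated H2A.Z-mCherry embryos.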

How the data were processed

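Raw read counts per Ensembl gene for 12 libraries were deposited by the authors, with replicates apart. STAR, featureCounts 2.0.3 (Subread), DESeq2 1.22.2, deepTools and GRCz11 are named in the submitters' processing notes, without role or order. The sources used here name no annotation release, strand setting or treatment of multiply mapped reads. The authors' deposited tables also give, per gene and genotype, a mean signal (normalised count), a log2 fold change, its SE, a Wald score and p-values. Their fold changes and some SEs are printed for the 4 genes, and nothing else from them.

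Symbols came from a table of Ensembl IDs, which gave one for 29201 of 32520 genes. The count model was edgeR 4.0.16 under R 4.3.3. Filtering with filterByExpr left 12293 genes, which hold 98.5% of the counts. TMM set the scaling, and all 12 libraries entered 1 robust quasi-likelihood fit with a coefficient per group and a common biological coefficient of variation of 14.8%. Of 5 contrasts, 4 compared groups within a line or treatment and the last was the difference of the responses. Calls used a Benjamini-Hochberg adjusted p under 0.05 over all tested genes. Each SE was obtained by dividing the size of the log2 fold change by the root of its F statistic and is approximate. Log2 CPM used a prior count of 2. The fit was tested on simulated data. No 2 libraries held identical counts.

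The members, lists and tests were chosen with earlier results of these data known. Named genes were the 4 members, their paralogs, up to 3 called genes with the smallest adjusted p per related list in each contrast but that between lines with 5AzadC, up to 2 per marker list by the difference, and the genes with the highest r (3 per member, 5 by mean r). The embryo and H2A.Z check genes, RELA, nfkb1, DUSP6, krt4, TFAP2C, LCP1, cybb and the markers at 0 stand outside that rule. So do ENSDARG00000027744 (GADD45B), ENSDARG00000037284 (PTGES3) and the endothelial and blood markers other than SOX7 and npas4l. All of these were named after their values were seen. Alternatives were DESeq2 1.42.0, RLE and upper quartile factors, no filter, a replicate block and each library left out. Intervals cover counting error only.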

Additional observations from a re-analysis of the deposited data

Results flagged for a closer look

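By the interaction term of the edgeR fit 461 tested genes (3.75%) differed between the lines in the 5AzadC response, 233 higher and 228 lower. The 14 given here are those that the rule for named genes took from the related and marker lists, a subset of the calls in these lists, which held 9 related, 7 periderm, 2 endothelial and 1 yolk gene. On the log2 scale, H2A.Z-mCherry minus wild type, the AP-1 genes were at -4.64 (JUNB, ENSDARG00000074378, adjusted p 2.82e-06), -3.36 (JUNB, ENSDARG00000104773, adjusted p 2.98e-07), -3.16 (FOS, adjusted p 4.45e-08) and -2.65 (FOSL1, adjusted p 0.00061). Genes of the inflammatory list were at -2.38 (ier2b, adjusted p 0.0179), -2.07 (TNFAIP3, adjusted p 0.000286), -1.36 (NFKBIZ, adjusted p 0.00321) and -1.32 (ier2a, adjusted p 0.00272). BTG2 was at -0.77 (adjusted p 6.25e-05). Marker genes were at -0.91 (cyt1l, adjusted p 1.45e-07), -0.93 (krt92, adjusted p 4.66e-07), -1.96 (SOX7, adjusted p 0.0153), -1.01 (npas4l, adjusted p 0.0364) and -0.68 (apoa1b, adjusted p 0.000994). All 14 were lower, while TFAP2C of the periderm list, which that rule did not take, was called higher (0.76, adjusted p 0.000162).

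PTGS2 (ENSDARG00000010276, -3.39) and ets2 (-2.85) are listed because every treated H2A.Z-mCherry library was below every untreated one while every treated wild-type library was above every untreated one. The same held for 86 tested genes (0.7%), among them both JUNB genes, TNFAIP3 and ier2a. For PTGS2 and ets2 the difference was not tested, since they were chosen for it.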

How the results depend on the processing

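The 20 fitted values of the 4 genes kept their sign under all 17 alternatives. With DESeq2, RLE or upper quartile factors, no filter and the replicate block they stayed within the replicate SD. Leaving out wild-type DMSO replicate 3 moved 6 of them by more than that SD. Over the libraries left out in turn, PTGS2 ranged from 1.76 to 2.39 for the wild-type response, 1.41 to 2.08 for the lines with DMSO and -3.81 to -3.14 for the difference. For irg1l these ranges were 2.54 to 3.91, 1.49 to 2.86 and -4.71 to -3.34. The irg1l response in H2A.Z-mCherry ranged from -1.41 to -0.38. Called genes in H2A.Z-mCherry, 2197 in all, ranged from 1389, without H2A.Z-mCherry 5AzadC replicate 2, to 2290. Related genes called ranged from 8 to 17 between lines with DMSO, from 14 to 24 with 5AzadC, and from 8 to 10 for the difference. The differences of CEBPA and ptgs1, neither of them called, ranged from -0.39 to 0.03 and from -0.03 to 0.31, and changed sign without H2A.Z-mCherry 5AzadC replicate 3. Those of ETS1 and CEBPD, also not called, ranged from -1.31 to -0.42 and from 0.02 to 1. The JUNB (ENSDARG00000074378) difference ranged from -6.14 to -4.13. The cause was not tested. Replicate numbers are shared across groups, but same-numbered libraries did not deviate together (correlations -0.03 to 0.02). A replicate block gave 464 calls for the difference against 461 without it, and 10 related genes against 9. Low counts limit irg1l most.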
